A study of Rattus norvegicus with 4 samples.

Results

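Expression of the PGC-1 coactivators and of the regulators of mitochondrial biogenesis that work with them was followed in ischemic skeletal muscle of the rat. The set was given as 10 gene symbols, and its members were all probe sets annotated with one of them: the coactivators Ppargc1a and Ppargc1b, the estrogen-related receptors Esrra and Esrrg, the factors Nrf1 and Tfam, the fatty acid receptors Ppara and Ppard, and the deacetylases Sirt1 and Sirt3. Of the 10 symbols, 9 were found, with 15 probe sets, among the 14218 genes that the array's annotation names. Sirt1 was not among them, so its expression was not analysed here. The rule used names only and no measured value, but the members were chosen with earlier results of these data known.

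Total RNA from skeletal muscle of F344/DuCrlCrlj rats was hybridised to 4 single-colour oligonucleotide arrays: 1 of ischemia with electrical stimulation (ischemia + ES), 1 of ischemia with exercise, 1 of ischemia alone and 1 of sham. The model stands for intermittent claudication, in which narrowed leg arteries make walking painful, and the study asked what stimulation and exercise change in ischemic muscle. The muscle sampled, the number and age of the animals behind an array, any pooling, and the dose and timing of ES and of exercise are unknown here, as the sources used do not give them. With 1 array per group there were no replicates, so each difference below is one between 2 arrays, no test was possible and no p-value is given. The comparisons of ES and of exercise with ischemia share the ischemia array.

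Signals are in the array's linear, arbitrary units. A floor of 30.1, below which 50% of the signals lay, replaced lower values before ratios were taken, and a difference was counted where the floored signals of a gene were at least 2-fold apart. A gene with several probe sets was counted by the brightest. Of the 15 member probe sets, 11 lay above the floor on all 4 arrays and 4 on none, which left 8 members among the 10092 genes compared. The arrays were alike in the share of probe sets above the floor (49.3% to 51.1%), and 18 spiked hybridisation controls varied between arrays with a median log2 SD of 0.06, a figure that covers hybridisation and scanning only. The ratio of the 3' to the 5' actin probe sets, a measure of RNA degradation, was 5.94 on the ischemia + ES array, against 3.81 to 4.38 on the others, and its part in the results was not tested. All 6 skeletal muscle markers lay above the floor on every array, with summed signals of 58185 to 64863.

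PGC-1 alpha and PGC-1 beta, encoded by Ppargc1a and Ppargc1b, bind no DNA themselves. They dock on transcription factors and nuclear receptors, above all the estrogen-related receptors, the PPARs and the nuclear respiratory factors, and so raise the transcription of genes for oxidative phosphorylation and fatty acid oxidation. Nuclear respiratory factor 1 (Nrf1) and the ETS factor GABP in turn drive Tfam, which packages and transcribes mitochondrial DNA. In muscle, contraction raises Ppargc1a through calcium and AMP-activated kinase signalling, in part through a cyclic AMP response element (CRE) of its promoter bound by CREB and ATF2, and Sirt1 and AMP-activated kinase modify the protein.

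The promoters of both coactivator genes and of Tfam are shown because the coactivators had different patterns over the arrays while Tfam, at the end of the cascade, differed little. The sequences are the 250 bases before the RefSeq start site in the rat build GRCr8, 5′ to 3′ on the gene's strand. Capitals mark matches on either strand to any of 5 motifs: the CRE TGACGTCA, the estrogen-related receptor element TCAAGGTCA, the NRF1 site (GCGCA and GCGC with any 1 base between them), the GABP site CCGGAAGT and the MEF2 core TATTTTTA.
Ppargc1a, chr14:63634058-63634307, plus strand: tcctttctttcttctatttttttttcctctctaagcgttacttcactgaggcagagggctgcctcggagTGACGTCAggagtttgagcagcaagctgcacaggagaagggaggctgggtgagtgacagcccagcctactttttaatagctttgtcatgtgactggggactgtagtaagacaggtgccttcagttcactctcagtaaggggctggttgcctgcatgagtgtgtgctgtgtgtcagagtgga
Ppargc1b, chr18:57131467-57131716, minus strand: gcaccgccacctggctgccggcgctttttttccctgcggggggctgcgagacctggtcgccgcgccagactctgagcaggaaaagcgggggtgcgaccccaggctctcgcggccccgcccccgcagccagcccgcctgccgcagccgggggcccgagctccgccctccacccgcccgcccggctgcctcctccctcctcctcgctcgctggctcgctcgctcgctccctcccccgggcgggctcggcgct
Tfam, chr20:17355123-17355372, plus strand: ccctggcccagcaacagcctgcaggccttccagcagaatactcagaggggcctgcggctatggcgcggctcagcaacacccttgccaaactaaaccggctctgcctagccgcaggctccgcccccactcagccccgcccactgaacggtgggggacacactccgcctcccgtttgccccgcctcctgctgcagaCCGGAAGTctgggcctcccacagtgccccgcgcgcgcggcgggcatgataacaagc
The Ppargc1a window held 1 CRE, at -181 to -174 from the start site, a motif found in 1.59% of 33469 rat promoter windows of this length. The Tfam window held 1 GABP site at -56 to -49, found in 3.1% of the windows. The window of Ppargc1b, those of Esrra, Nrf1, Sirt1 and Sirt3, and all 4 of Esrrg held none of the 5 motifs. The Ppara window held the NRF1 letters at -100 to -91, found in 3.75% of windows, on both strands of the same bases. The estrogen-related receptor element was in 0.388% and the MEF2 core in 2.44% of all windows. A match describes these letters only, and the array measured no binding. The part of any motif in the patterns over the arrays was not tested.

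Ppargc1a had its highest signal with exercise and its lowest with ischemia alone on each of its 3 probe sets. On the brightest, 1393743_at, the signal was 334 with ischemia + ES, 467 with ischemia + exercise, 249.97 with ischemia and 308 in sham. On 1395518_at it was 165, 195, 92.0 and 143 in the same order of arrays, and on 1370089_at 83.7, 103, 78.5 and 78.7. The order exercise, ES, sham, ischemia thus held on all 3, although ischemia and sham lay within 0.01 log2 units of each other on 1370089_at.

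The probe sets of Ppargc1a gave unlike sizes for these differences. Exercise against ischemia was 1.87-fold higher on the brightest probe set, 2.12-fold on 1395518_at and 1.31-fold on 1370089_at. By the brightest, 1.37% of all genes compared had a ratio at least this high. ES against ischemia was 1.34-fold higher, with 1.79-fold and 1.07-fold on 1395518_at and 1370089_at, and here 17.2% of all genes were at least as high. Ischemia against sham was 1.23-fold lower, with 1.55-fold lower on 1395518_at. Between the treatments, ES was 1.40-fold lower than exercise, and lower on the other probe sets too (1.18-fold and 1.23-fold), and 6.93% of genes were at least as low.

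Ppargc1b, the second coactivator, which in mice promotes oxidative fibres, had 1 probe set and another order. Its signal on 1392715_at was 131 with ischemia + ES, 99.1 with exercise, 126.5 with ischemia and 159 in sham. The exercise array, where Ppargc1a was highest, held its lowest signal. Exercise was 1.28-fold lower than ischemia and 1.61-fold lower than sham, a ratio that 1.04% of all genes reached or passed, while ES was 1.04-fold higher than ischemia and 1.21-fold lower than sham. Pprc1, the third and most distant gene of the coactivator family, had 92.8 with ischemia + ES, 111 with exercise, 85.2 with ischemia and 113 in sham.

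**Figure D1:**
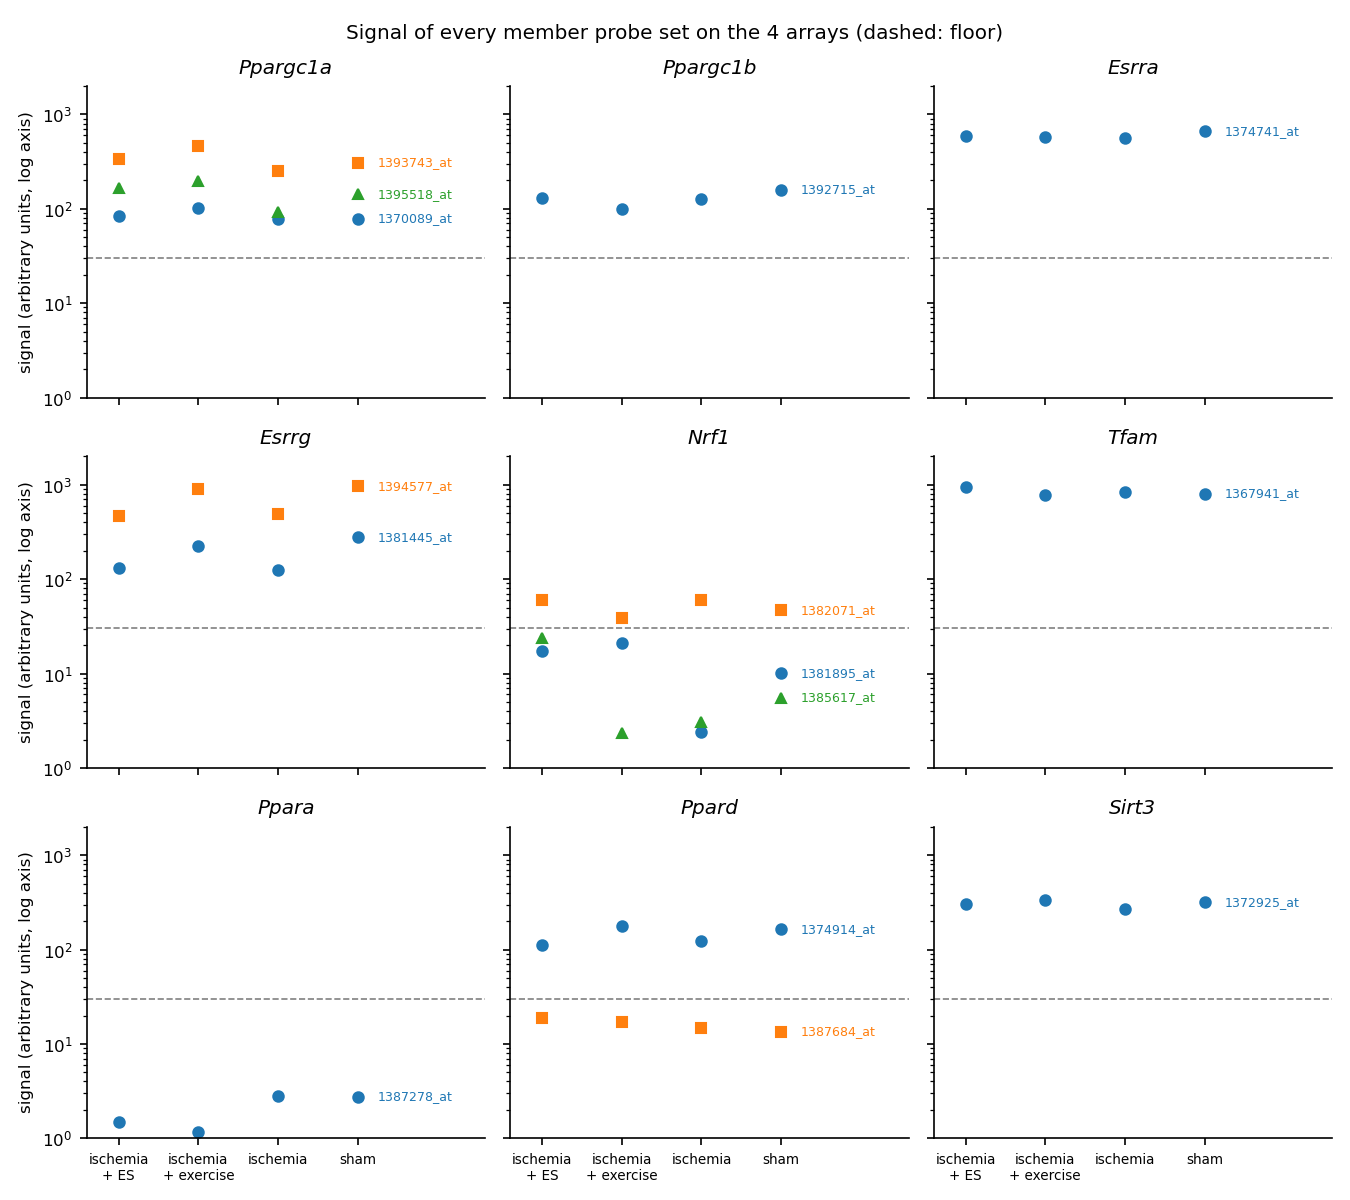
Signal of every member probe set (vertical log axis, arbitrary units) on the arrays of ischemia + ES, ischemia + exercise, ischemia and sham, 1 point per array, with the floor of 30.1 dashed. The 3 probe sets of Ppargc1a peak with exercise, and both of Esrrg are high with exercise and in sham and low with ischemia + ES and ischemia.

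Of the estrogen-related receptors, which bind DNA without a known natural hormone and carry much of the PGC-1 response to mitochondrial genes, Esrrg split the arrays in pairs and Esrra did not. Esrrg, which is enriched in oxidative fibres, had signals of 470 with ischemia + ES, 912 with ischemia + exercise, 492 with ischemia and 960.4 in sham on the brightest probe set, 1394577_at. On its other probe set, 1381445_at, the signals were 130.2, 226, 126 and 278.5 in that order. On both, the exercise and sham arrays were high and the ES and ischemia arrays low.

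Esrrg had the widest span of the members, 2.04-fold between the lowest and the highest array, against a median of 1.33-fold over all genes, and 7.33% of genes spanned as much. Ischemia against sham was 1.95-fold lower on the brightest and 2.21-fold lower on the other probe set, and 0.961% of genes were at least as low as Esrrg by the brightest. Exercise against ischemia was 1.86-fold higher (other probe set 1.79-fold), and 1.40% of genes were at least as high. ES against ischemia was 1.05-fold lower on the brightest and 1.03-fold higher on the other, so no direction was shared. ES against exercise was 1.94-fold lower (other probe set 1.73-fold lower), a ratio that 1.17% of genes reached or passed.

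Esrra, the receptor that is both partner and target of PGC-1 alpha, was nearly level. Its signals were 590.1 with ischemia + ES, 578 with exercise, 567 with ischemia and 663 in sham, a span of 1.17-fold that 79.3% of all genes equalled or passed. The 3 ischemic arrays lay within 1.04-fold of each other and sham was above them. Esrrb, the third receptor of the family and no member of the set, was dim, with 41.0, 55.8, 42.6 and 54.6 in the same order of arrays.

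Nrf1 and Tfam stand between the coactivators and the mitochondrial genome. Nrf1 was above the floor on 1 of its 3 probe sets, 1382071_at, at 60.7 with ischemia + ES, 39.1 with exercise, 60.0 with ischemia and 47.1 in sham. The values on the exercise and sham arrays were the nearest to the floor of 30.1 among the members compared. Exercise had the lowest value, 1.53-fold lower than ischemia, with 3.62% of genes at least as low, and ES was 1.55-fold higher than exercise, with 9.09% at least as high. The other 2 probe sets, 1381895_at and 1385617_at, were under the floor on every array and gave no ratio.

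Tfam was bright and differed little. Its signals were 957 with ischemia + ES, 784 with exercise, 837 with ischemia and 801.5 in sham. The ES array was the highest, 1.14-fold above ischemia and 1.22-fold above exercise, and the other 3 lay close together. A span as wide as that of Tfam, 1.22-fold, was found in 69.3% of all genes.

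Of the PPARs, which bind fatty acids and switch on genes of their oxidation, Ppard is the main form of skeletal muscle. Its brighter probe set, 1374914_at, had signals of 111 with ischemia + ES, 176.0 with exercise, 124 with ischemia and 164 in sham. Like Esrrg, it was high with exercise and in sham and low on the ES and ischemia arrays, with a narrower span of 1.59-fold. Exercise was 1.41-fold higher than ischemia, with 5.6% of genes at least as high, ES was 1.12-fold lower than ischemia, and ES was 1.59-fold lower than exercise, with 3.37% of genes at least as low. Its other probe set, 1387684_at, was under the floor on every array.

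Ppara, the PPAR of liver and heart that also serves oxidative muscle, had 1 probe set, at 1.49 with ischemia + ES, 1.16 with exercise, 2.80 with ischemia and 2.74 in sham. All 4 signals were far under the floor and give no order and no ratio; they do not show that the gene was silent. Sirt3, the main deacetylase of the mitochondrial matrix and a target of PGC-1 alpha with Esrra, had 307 with ischemia + ES, 337 with exercise, 272 with ischemia and 319 in sham. Ischemia was again the lowest array. Exercise was 1.24-fold and ES 1.13-fold higher than ischemia, and 13.3% and 36.9% of genes were at least as high.

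**Figure D2:**
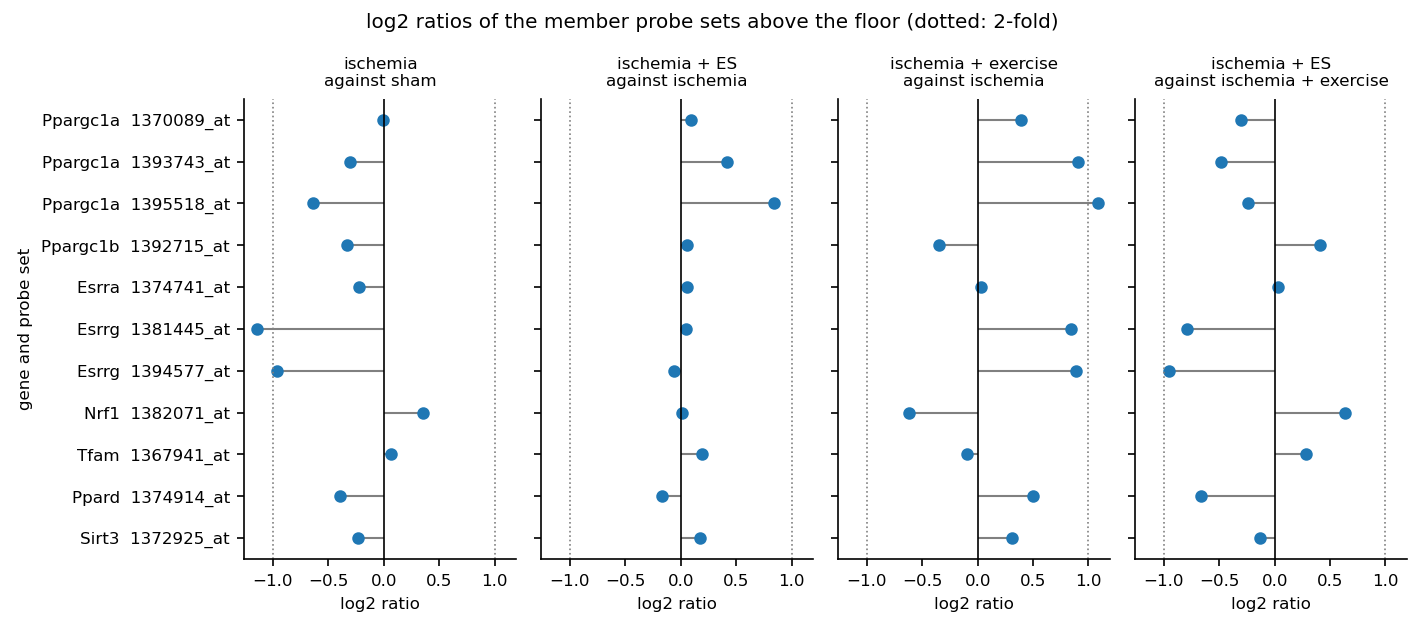
log2 ratios (horizontal axis) of the 11 member probe sets above the floor on all arrays, in 4 comparisons named above the panels, with 2-fold as dotted lines. For exercise against ischemia the points of Ppargc1a, Esrrg, Ppard and Sirt3 lie right of 0 and those of Ppargc1b, Nrf1 and Tfam left of it. For ES against ischemia most lie near 0, apart from 1393743_at and 1395518_at of Ppargc1a.

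Counted by their brightest probe set, 0 of 8 members passed 2-fold for ischemia against sham, where 1.64% of all genes did. For ischemia + ES against ischemia it was again 0 of 8, where 3.07% of all genes passed, and for ischemia + exercise against ischemia 0 of 8, where 2.01% passed. For ischemia + ES against ischemia + exercise it was 0 of 8, beside 4.05% of all genes. Against sham, Esrrg alone passed with ischemia + ES, 2.04-fold lower, where 4.84% of all genes passed, and none of the 8 passed with ischemia + exercise, where 0.446% of all genes did.

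At 1.5-fold, the lower threshold, 3 of 8 members were counted for exercise against ischemia, beside 8.26% of all genes: Ppargc1a and Esrrg higher and Nrf1 lower. For ES against ischemia it was 0 of 8, beside 14.5% of all genes. For ES against exercise 3 of 8 were counted, beside 15.1%: Nrf1 higher, Esrrg and Ppard lower. Of the 8 members, Esrrg was counted for ES against sham, beside 16.7% of all genes. For ischemia against sham Esrrg was counted, beside 8.14% of all genes, and for exercise against sham Ppargc1a (1.52-fold higher) and Ppargc1b (lower), beside 4.64%. The other probe sets of Ppargc1a stayed under 1.5-fold there, at 1.36-fold higher on 1395518_at and 1.31-fold higher on 1370089_at. The median log2 ratio of the 8 members was -0.27 for ischemia against sham, 0.06 for ES against ischemia, 0.17 for exercise against ischemia and -0.05 for ES against exercise, where the medians of all genes were 0.00, 0.05, 0.00 and 0.03. With a floor at the 70th percentile, which leaves out Nrf1, the members' median for exercise against ischemia was 0.31.

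**Figure D3:**
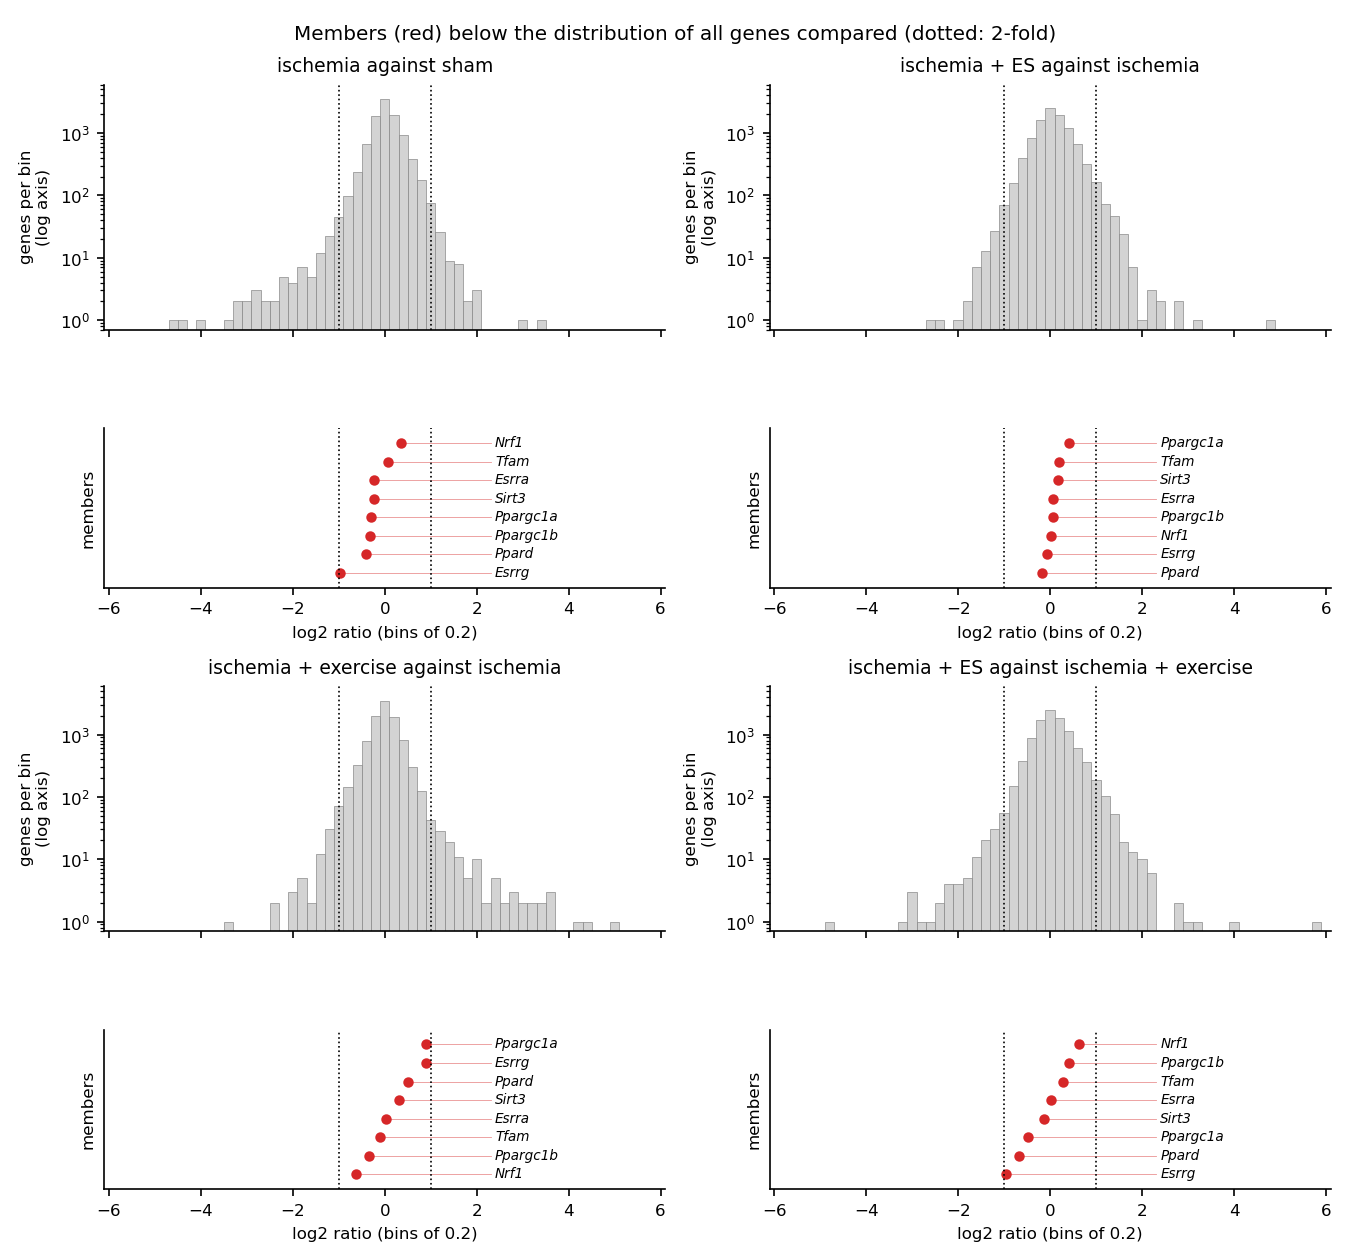
Numbers of genes per bin of log2 ratio (grey, vertical log axis) in 4 comparisons, and below each the 8 members compared (red points, named), with 2-fold dotted. The members lie inside the 2-fold lines in all 4, with Ppargc1a and Esrrg near the upper line for exercise against ischemia and Esrrg near the lower line for ischemia against sham and for ES against exercise.

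Markers of fibre type and of other cells differed between these arrays too. The summed signal of 10 slow-fibre genes was 23214 with ischemia + ES, 76603 with exercise, 11603 with ischemia and 66333 in sham, all 10 above the floor on each array, so the arrays high in Esrrg and Ppard were those high in slow-fibre genes. The sum of 13 measured fast-fibre genes ran from 130481 to 141612. In such bulk samples, fewer cells or fibres of a kind and less RNA per cell cannot be told apart. Summed signals of 8 measured endothelial markers were 4579 with ES, 2381 with exercise, 2224 with ischemia and 2265 in sham. Those of 10 macrophage markers were 4680, 1720, 3933 and 1657 in that order, with 1 marker under the floor on the exercise array. Those of 8 fibroblast markers were 22587, 14704, 26557.5 and 14405, and those of 6 measured adipocyte markers 4512, 2809, 2525 and 2253, with 3 to 5 of them above the floor. Fabp4, which endothelial cells also express, made up most of the adipocyte sum (4215 with ES, 2217.5 with exercise, 2154 with ischemia and 1989 in sham). Adipoq, Plin1, Cidec and Cfd were instead highest with exercise, and of the 5 adipocyte markers compared 5 were above 0 for exercise against ischemia and 4 below 0 for ES against exercise. The part of these markers in the members' differences was not tested.

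Other transcription factors and receptors that work with PGC-1 formed a list of 20 genes, all compared. None passed 2-fold for ischemia against sham, ES against ischemia, exercise against ischemia or ES against exercise. The shares of all genes that did were 1.64%, 3.07%, 2.01% and 4.05% in that order. Nr1d1, the clock repressor REV-ERB alpha, passed against sham, at 308 with ischemia + ES, 346 with exercise, 224 with ischemia and 139.9 in sham, which is 2.20-fold higher with ES and 2.47-fold higher with exercise than in sham. Against sham, 4.84% of all genes passed 2-fold with ES and 0.446% with exercise. Of the 20, 16 were lower with ES than with exercise (median log2 ratio -0.19, beside 0.03 over all genes, or -0.08 with the mean of all probe sets per gene). Among them was the thyroid hormone receptor gene Thrb, at 447 with ES and 799 with exercise on its brightest probe set. Thrb had 1 other probe set above the floor, whose values are not given here.

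The list of corepressors, other sirtuins and upstream regulators held 25 compared genes, and 1 passed 2-fold in each of 3 comparisons. The shares of all genes past 2-fold were 1.64% for ischemia against sham, 3.07% for ES against ischemia and 2.01% for exercise against ischemia. Rcan1, an inhibitor of calcineurin and a reporter of its activity, had 319 with ischemia + ES, 559 with exercise, 203 with ischemia and 584 in sham, 2.88-fold lower in ischemia than in sham and 2.76-fold higher with exercise than in ischemia. Prkaa2, the alpha 2 catalytic subunit of AMP-activated kinase, had 837, 1355, 1679.7 and 1661 in that order and was 2.01-fold lower with ES than with ischemia. Perm1, a muscle regulator that PGC-1 and the estrogen-related receptors induce, had 1783 with ES, 2024 with exercise, 1202 with ischemia and 2016 in sham, below 2-fold throughout. Between ES and exercise none passed, beside 4.05% of all genes, and 18 of 25 were lower with ES (median log2 ratio -0.23, beside 0.03 over all genes).

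Of 19 compared genes of mitochondrial DNA copying and transcription, none passed 2-fold in any of the 6 comparisons, beside 0.446% to 4.84% of all genes. The list medians lay between -0.16 (ischemia against sham) and 0.13 (ES against ischemia), where the medians of all genes were 0.00 and 0.05. For ischemia against sham 15 were below 0 and 4 above, and for ES against ischemia 16 were above 0 and 3 below. The transcription factor gene Tfb2m had 627 with ischemia + ES, 593 with exercise, 588 with ischemia and 688 in sham, and the RNA polymerase gene Polrmt 63.0, 84.0, 62.8 and 79.5. Among 22 genes of mitochondrial fusion, fission, import and removal, Timm44, a motor anchor of matrix import, passed 2-fold, at 238 with ES and 108 with ischemia (2.20-fold higher), with 136 on the exercise and 172 on the sham array. For ES against ischemia 3.07% of all genes passed 2-fold. Of these 22, 20 were below 0 and 2 above for ischemia against sham, with a median of -0.17. The fusion gene Mfn2, which PGC-1 alpha and Esrra induce, had 2305 with ES, 2622 with exercise, 2260.4 with ischemia and 2672 in sham.

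Genes that encode the oxidative machinery itself were higher with ES than with ischemia alone or with exercise. Ppargc1a too was higher with ES than with ischemia on each of its probe sets, but it was lower with ES than with exercise. All 36 compared citrate cycle and respiratory chain genes had log2 ratios above 0 for ES against ischemia, with a median of 0.37 (0.22 under quantile normalization), and all 36 for ES against exercise, with a median of 0.32, beside medians of 0.05 and 0.03 over all genes. Only Cox7a1, the muscle form of a cytochrome oxidase subunit, passed 2-fold, at 592 with ischemia + ES, 276 with exercise, 205 with ischemia and 347 in sham (2.89-fold higher than ischemia, 2.14-fold higher than exercise). Over all genes, 3.07% passed 2-fold for ES against ischemia and 4.05% for ES against exercise. For exercise against ischemia 26 of 36 were above 0 with a median of 0.05, which was -0.03 under quantile normalization. Cs, citrate synthase, a usual index of mitochondrial content, had 6037 with ES, 4224 with exercise, 4012 with ischemia and 4324 in sham. All 10 slow-fibre genes were above 0 for ES against ischemia, with a median of 0.94, and all 10 below 0 for ES against exercise, with a median of -1.78. The fast-fibre genes were above 0 in 11 of 13 for ES against ischemia, with a median of 0.24, and the 6 skeletal muscle markers had a median of 0.18. All 8 endothelial markers were above 0 in that comparison, with a median of 1.03, and the actin ratio was highest on the ES array. The part of these in the list's difference was not tested.

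Genes of fatty acid uptake and oxidation, targets of the PPARs and the estrogen-related receptors, were mostly lower in ischemia than on the other arrays. Of 30 compared, 26 were below 0 for ischemia against sham (median -0.40), 29 above 0 for ES against ischemia (median 0.51) and 26 above 0 for exercise against ischemia (median 0.24). The medians over all genes in these comparisons were 0.00, 0.05 and 0.00. Lpl, lipoprotein lipase, had 2254 with ischemia + ES, 2817 with exercise, 1284 with ischemia and 2986 in sham, 2.32-fold lower in ischemia than in sham and 2.19-fold higher with exercise than in ischemia. Fabp3, the muscle fatty acid binding protein, had 6316, 5259, 3002 and 5609 in that order and was 2.10-fold higher with ES than in ischemia. Cpt1b, the gate of fatty acid entry into mitochondria, had 2128 with ES, 2095 with exercise, 1385 with ischemia and 1912 in sham. The slow-fibre sum was lowest on the ischemia array as well, and its part in these differences was not tested.

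A few PPAR targets in that list had another order. Angptl4, an inhibitor of lipoprotein lipase, had 122 with ischemia + ES, 61.5 with exercise, 85.7 with ischemia and 36.5 in sham, 2.35-fold higher in ischemia than in sham and 3.33-fold higher with ES than in sham. Both ratios rest on the sham signal of Angptl4, which was close to the floor of 30.1. Pdk4, which blocks the use of pyruvate, had 5232, 4569.9, 3570.4 and 2232 in that order and passed 2-fold against sham with ES (2.34-fold) and with exercise (2.05-fold), its other probe set at log2 ratios of 0.93 and 0.87. Ucp3, a mitochondrial carrier, had 1450.5 with ES, 849 with exercise, 1174 with ischemia and 689 in sham and was 2.10-fold higher with ES than in sham, its other probe set at 0.67.

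Of 17 compared genes on a list of other PGC-1 alpha targets of muscle, 16 were above 0 for ES against ischemia (median 0.33) and 12 for exercise against ischemia (median 0.18). The medians over all genes were 0.05 and 0.00. Spp1, osteopontin, which macrophages also express, had 259 with ES, 128 with ischemia and 58.6 in sham and lay under the floor with exercise, so it was 2.02-fold higher with ES than in ischemia, at least 4.24-fold lower with exercise than in ischemia and at least 8.59-fold higher with ES than with exercise. Spp1 was also 2.18-fold higher in ischemia than in sham. Of the 10 macrophage markers, 9 were above 0 for ischemia against sham and 9 below 0 for exercise against ischemia, while for ES against ischemia 6 were below 0, with a median of -0.07. Their part in the differences of Spp1 was not tested. Angpt2, a vessel growth factor, had 204 with ES, 204.5 with exercise, 143 with ischemia and 101 in sham, 2.01-fold and 2.02-fold higher with ES and with exercise than in sham. Fndc5, the precursor of irisin, had 1434 with ES, 1304 with exercise, 897 with ischemia and 1608 in sham.

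**Figure D4:**
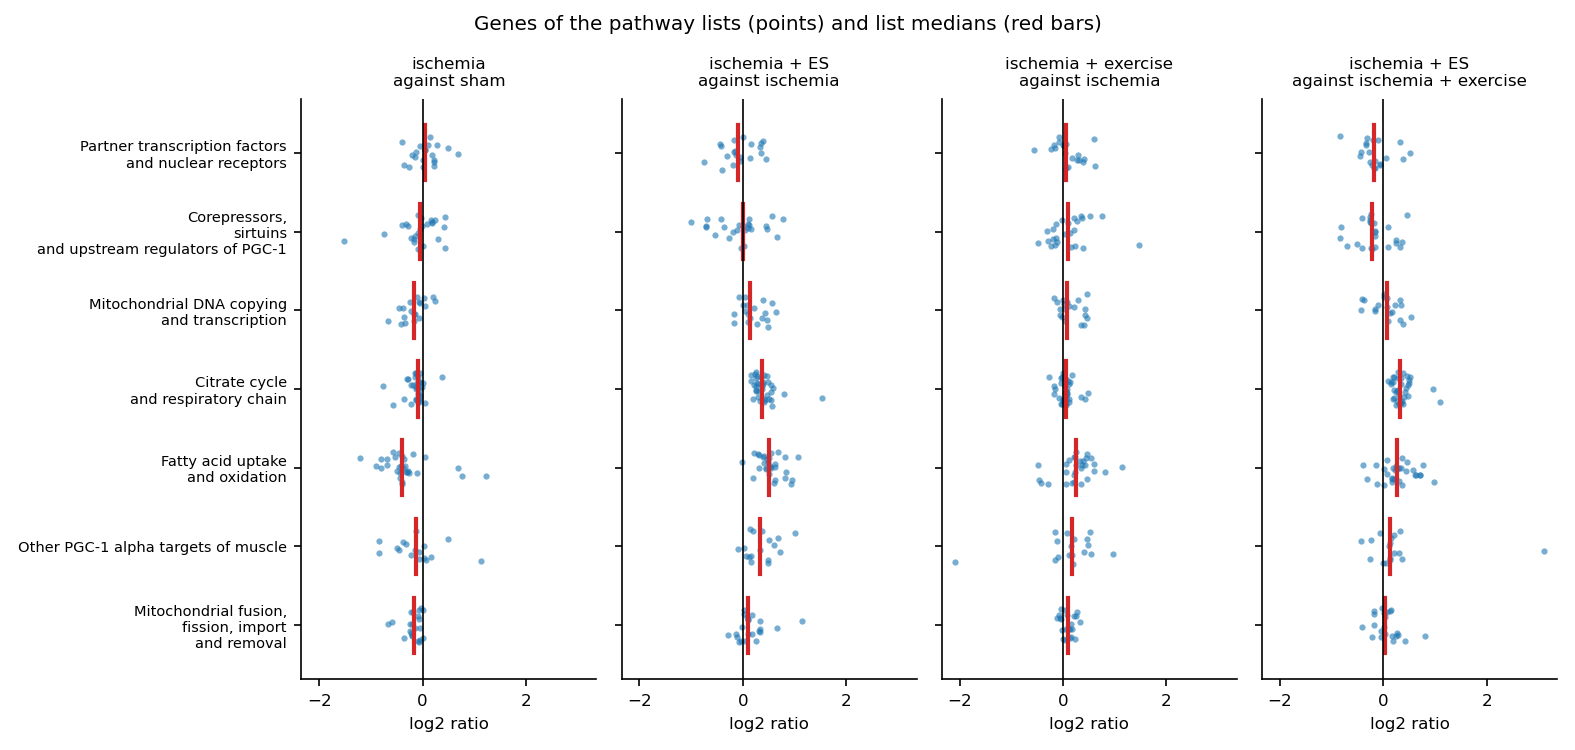
log2 ratios (horizontal axis) of the genes of 7 pathway lists (points, spread vertically for clarity) with list medians as red bars, in 4 comparisons. The citrate cycle and respiratory chain genes lie to the right of 0 for ES against ischemia and for ES against exercise, and most fatty acid genes to the left for ischemia against sham.

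The genes nearest to Ppargc1a over the 4 arrays, by Euclidean distance between centred log2 signals among 8766 genes above the floor on every array, were Tinf2 (distance 0.04), a telomere protein gene, Slc27a4 (0.08), a fatty acid transporter gene, and Pheta1 (0.12), beside a median distance of 0.72. Slc27a4 had 119 with ischemia + ES, 157 with exercise, 87.9 with ischemia and 112 in sham. Nearest to Esrrg were Sdc4 (0.10), a syndecan gene, Gsta4 (0.15), a glutathione transferase gene, and Homer2 (0.18), a scaffold gene, beside a median of 1.02. Sdc4 had 274 with ischemia + ES, 561 with exercise, 274 with ischemia and 556 in sham. With 4 points, a near pattern is a description of these arrays only.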

How the data were processed

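The values the authors deposited are linear signal intensities, 1 for each probe set on each array, and the submitters' processing notes name MAS5 without a version. Per the labels' protocols, column-purified RNA was made into biotinylated cRNA with a 3' IVT kit, so signals come mostly from transcript 3' ends. As deposited, every array had a 2% trimmed mean of 150.1, so a difference in total mRNA cannot be seen. Detection calls were not used here, and no build is named for the probes.

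The platform annotation gave 1 symbol to 20832 of 31099 probe sets, several to 436 and none to 9831; 20764 gene IDs matched the RefSeq table (GRCr8), with 0 differing symbols. Promoters are from RefSeq (GRCr8), matched by symbol for 9 of the 10 members; Ppard had no entry.

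Arrays were rescaled to a common trimmed mean, floored, and compared as log2 ratios with Python 3.11.15; limma 3.58.1 gave the alternative normalizations. The ratios were tested on simulated data with known changes. Those changes were larger than any ratio of the members and lay in genes well above the floor. The simulation therefore does not cover ratios as small as the members' or genes as dim as Nrf1. The number of arrays limits precision. The members, the lists and the rule for named genes were chosen with earlier results of these data known. The rule took all members, up to 4 genes per list past 2-fold (all where 5 or fewer), and the 3 genes nearest in pattern to Ppargc1a and to the widest member. Nr1d1, Angpt2, Pdk4 and Ucp3, named for comparisons with sham that the rule does not cover, and other list genes (Pprc1, Esrrb, Thrb, Perm1, Tfb2m, Polrmt, Mfn2, Cs, Cpt1b and Fndc5) are given as examples chosen after their values were seen.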

Additional observations from a re-analysis of the deposited data

Results flagged for a closer look

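Of the members compared, 3 lay on opposite sides of ischemia with ES and with exercise and at least 1.5-fold apart between the treatments. The log2 ratio of ischemia + ES against ischemia + exercise was -0.96 for Esrrg, -0.67 for Ppard and 0.63 for Nrf1. On the ES side all 3 were within 1.12-fold of ischemia, so the opposite directions rest on small ES ratios, and the second probe set of Esrrg had a ratio of the other sign there (0.05). For Nrf1 the ES ratio turned to -0.06 under quantile and -0.07 under loess normalization, the side of exercise. With 1 array per treatment, these differences were not tested.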

How the results depend on the processing

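No paired analysis was possible because each group has 1 array. No p-value, replicate or detection call backs any ratio, and Nrf1 lies close to the floor. Of 282 log2 ratios of members under quantile or cyclic loess normalization, floors at the 30th or 70th percentile, the mean of all probe sets, or without the 244 probe sets marked _x_, 275 stayed within 0.2 of the reported value. Nrf1 has no value at the 70th percentile floor, where it is not among the genes compared, so its 1.5-fold differences have no counterpart there. The other 7, all for Nrf1 or Ppard, came with the mean of all probe sets, which adds probe sets at the floor. The sign differed in 2, both for Nrf1 with ES against ischemia (-0.06 under quantile and -0.07 under loess normalization, reported 0.02). Many of the 282 could not move, so the 275 overstates how stable the ratios are. No member probe set is marked _x_, so leaving those out changed no ratio. The members compared lay above the reported floor on every array, so the lower floor changed none either. The mean of all probe sets cannot change Ppargc1b, Esrra, Tfam or Sirt3, which have 1 probe set each. The number of members past 2-fold became 1 for ischemia against sham with the mean of probe sets, through Esrrg. With a 1.5-fold threshold the numbers were 1 for ischemia against sham, 3 for exercise against ischemia, 3 for ES against exercise and 2 for exercise against sham; with 3-fold, 0 for ES against sham. Counts over all genes depended on floor and threshold. For ischemia against sham 166 genes passed 2-fold, 460 and 80 with the lower and higher floor, 821 at 1.5-fold and 43 at 3-fold. For ES against ischemia these were 310, 635, 155, 1465 and 34, for exercise against ischemia 203, 574, 97, 834 and 54, and for ES against exercise 409, 800, 197, 1521 and 67. For ES against sham they were 488, 881, 225, 1689 and 78, and for exercise against sham 45, 321, 23, 468 and 6.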
